A study of Homo sapiens with 9 samples.

Results

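The SID peptide was compared with its scrambled control, SCR, replicate by replicate in MDA-MB-231, a triple negative human breast cancer cell line. The comparison used the 6 SCR and SID arrays of the 9 in the series, each SID array set against the SCR array that carried the same replicate number. The SID arrays were labelled as cells given 2.5 μM peptide for 24 h. The SCR and untreated (UT) arrays, 3 of each, were labelled 24 h too, no SCR dose being given in the labels. According to the methods both peptides were used at the same dose. In a supplementary sheet the arrays of replicate 3 carry a prefix that the other arrays lack, and its SCR array is headed with a longer time than in the labels. Replicates 1 and 2 were therefore described together and replicate 3 beside them. Earlier results of these data had also shown replicate 3 to stand apart, so the split was not independent of the values compared here. Weight was put on genes outside the Wnt and epithelial-mesenchymal transition (EMT) lists of the study.

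SIN3A and SIN3B are scaffolds that bring histone deacetylases to DNA-bound repressors. The repressor MAD1, encoded by MXD1, and its relatives dock on a helical domain of SIN3 through a short SIN3 interaction domain, SID. The SID peptide is a cell-penetrating copy of that stretch and competes for this docking surface, whereas the scrambled peptide has the same residues in another order.

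All values are log2 signals from a whole-transcript human gene array, 1 value per probe, so that a difference of 1 is a 2-fold difference. A probe stood for each of 18417 genes. Across genes the SCR arrays of replicates 1 and 2 correlated at 0.995 and the SID arrays at 0.993, the SCR and SID arrays of replicate 3 correlated at 0.996, and SCR 3 correlated with SCR 1 and SCR 2 at only 0.927 and 0.928. SCR 3 and SID 3 resembled the UT arrays (0.992 to 0.995). The sets also differed in genes that mark the cell line. Over 13 genes known to be strongly expressed in MDA-MB-231, the median level was 13.03 and 13.24 in SCR 1 and SCR 2 and 13.17 and 13.19 in SID 1 and SID 2, but 11.12 in SCR 3, 11.17 in SID 3 and 11.06 to 11.22 in the UT arrays. The receptor kinase AXL read 12.95 to 13.31 in the 4 arrays of replicates 1 and 2 against 9.95 to 10.14 in the other 5, and the membrane protease MMP14 11.18 to 12.23 against 7.25 to 7.67. None of these 13 genes was called between SID and SCR. Fewer cells of a kind and less RNA per cell cannot be told apart in such bulk samples, and the part of the gap between the sets in the results was not tested.

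In replicates 1 and 2 the response to SID was large and similar. By limma (2 SCR against 2 SID arrays, adjusted p under 0.05 and a difference past 2-fold), 327 of 18417 genes were called higher (1.78%) and 489 were called lower (2.66%), 816 in all (4.43%). The called rises had a median of 1.27 and the called falls a median of -1.36. Past 4-fold were 27 rises and 87 falls, and past 16-fold were 1 rise and 7 falls. By same-number differences, 387 genes were past 2-fold higher in replicate 1 (2.1%) and 456 in replicate 2 (2.48%), of which 246 were shared (1.34%), that is 63.6% of the first list and 53.9% of the second. Falls past 2-fold numbered 451 in replicate 1 (2.45%) and 950 in replicate 2 (5.16%), of which 395 were shared (2.14%), 87.6% and 41.6% of each list. The fall was therefore wider in replicate 2. Of the 489 genes called lower, 420 fell further in replicate 2 than in replicate 1, and 217 of the 327 called higher rose further. Across genes, which are not independent replicates, the differences of replicates 1 and 2 correlated at r = 0.82 (0.67 by Spearman's rank correlation). The calls rest on 4 arrays: without any 1 of SCR 1, SCR 2, SID 1 or SID 2 limma called 0 probes, with 3883 to 5234 probes at an unadjusted p under 0.05. With the spread taken from all 9 arrays in 5 cells, leaving out the same arrays in turn gave 314 to 509 probes higher and 445 to 930 lower, against 345 and 514 probes in the 4 arrays alone, and 930 was the count without SID 1.

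Replicate 3 did not carry this response. No gene was past 2-fold higher (0.0%) and 45 were past 2-fold lower (0.244%), none of them protein coding. Across genes the differences had an SD of 0.459 and 0.576 in the first 2 replicates and of 0.185 in the other, and 234 genes differed by over 0.5 in replicate 3 against 3462 and 4541 in the other two. Of the 327 genes called higher in replicates 1 and 2, 176 were above 0 in replicate 3 (53.8%, median 0.01). Of the 489 genes called lower, 140 were below 0 there (28.6%, median 0.09). Over all 18417 tested genes 9638 were above 0 in replicate 3 and 8191 below 0 (median 0.01). Across genes the replicate 3 difference correlated with the mean of replicates 1 and 2 at r = -0.14 (-0.19 by Spearman's rank correlation). Tested by limma as a difference of differences, replicate 3 was higher than replicates 1 and 2 for 592 genes (3.21%) and lower for 307 (1.67%). These included 386 of the 489 genes called lower and 241 of the 327 called higher, whose calls rest on arrays that this test uses too. The lone arrays of replicate 3 were taken to vary like the others in this test, and its calls drew their spread largely from the UT arrays: without these, limma called 3 probes higher and 0 lower, with 3726 probes at an unadjusted p under 0.05. Averaged over the 3 replicates, no gene was called in either direction by limma (0.0% higher and 0.0% lower, 1474 probes with an unadjusted p under 0.05). Nor was any probe called by a t-test of the 3 SID against the 3 SCR arrays after adjustment (378 unadjusted). The study's methods name t-tests for comparing groups in general, but its arrays were analysed with the program Chipinspector, which was not rerun here. The limma count depended on replicate 3: limma called 279 probes higher and 369 lower without SID 3, 63 and 160 without SCR 3, and 324 and 437 with array weights.

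**Figure D1:**
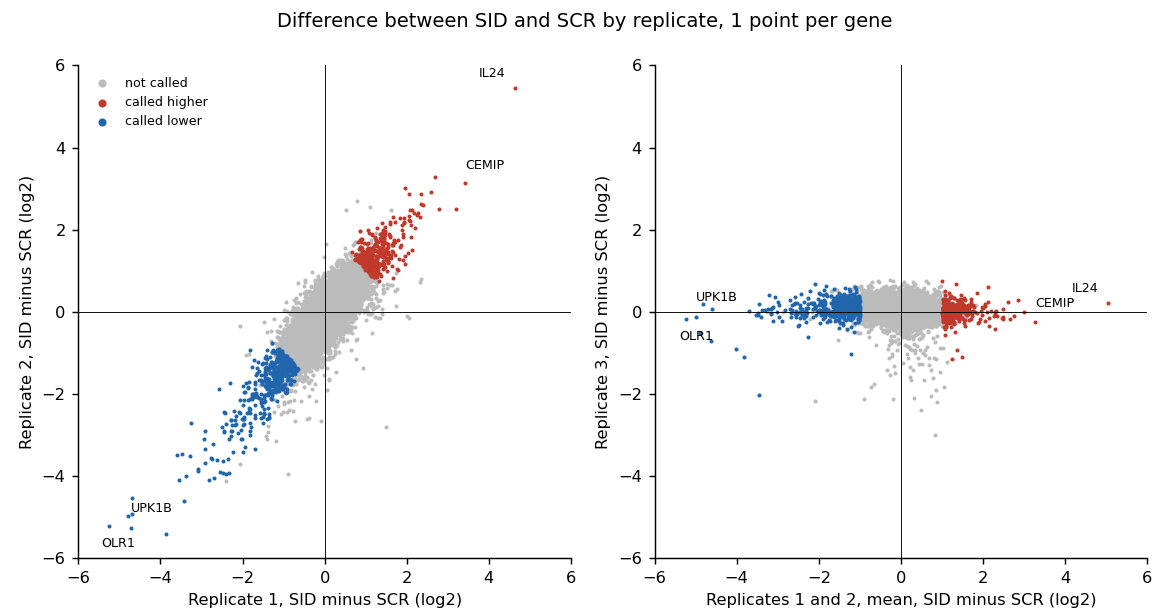
Difference between SID and SCR (log2), 1 point per gene, for replicate 2 against replicate 1 (left) and for replicate 3 against the mean of replicates 1 and 2 (right), on equal axes. Genes called by limma in replicates 1 and 2 are red (327 higher) or blue (489 lower), and they lie along the diagonal on the left and near 0 on the vertical axis on the right.

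The largest called rises included secreted, surface and intracellular proteins. IL24, a cytokine of the interleukin 10 family, read 6.67 and 6.59 in SCR 1 and SCR 2 and 11.29 and 12.05 in SID 1 and SID 2, while SCR 3 read 5.92, SID 3 read 6.14 and the UT arrays 6.17 to 6.36. Its rise was 4.63 and 5.46 in replicates 1 and 2 (mean 5.04, standard error 0.27, limma adjusted p = 0.016). It was thus high in SID 1 and SID 2 alone, with no overlap with the other 7 arrays. CEMIP, a hyaluronan-degrading protein, read 7.95 and 8.23 in SCR and 11.37 and 11.36 in SID, against 6.83 in SCR 3 and 6.59 in SID 3. RGS4, a brake on G protein signaling, rose by 2.76 and LOXL4, a lysyl oxidase that crosslinks collagen, by 2.65, both above every UT and replicate 3 array. ITGB3, the integrin β3 chain, rose by 2.50, and ABI3BP, a matrix protein, by 2.48. The interval for IL24 in replicate 3, with the spread of all 9 arrays, ran from -0.49 to 0.92. For RGS4 it ran from -0.55 to 0.34.

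Another of the largest rises was SLC16A4, a monocarboxylate transporter family member, which read 6.37 and 6.48 in SCR and 9.06 and 9.77 in SID of replicates 1 and 2, and 6.55 and 6.56 in replicate 3. ABCA1, the pump that exports cholesterol, rose by 3.20 and 2.51, against 0.29 in replicate 3. PDK4, a kinase that shuts pyruvate off from the citric acid cycle, had another pattern. It read 8.21 and 8.16 in SCR 1 and SCR 2 and 10.56 and 11.02 in SID 1 and SID 2, but 11.56 in SCR 3, 11.80 in SID 3 and 11.32 to 11.82 in UT. The SID arrays of replicates 1 and 2 therefore approached the UT level, from which the SCR arrays were away. KDM7A, a histone demethylase, and KLHL24, a ubiquitin ligase adaptor, rose by 2.48 and 2.29 with the same low SCR levels (6.97 to 7.05 and 8.79 in both), and SID levels above those of UT. Over all 327 called rises the UT mean lay nearer SID than SCR of replicates 1 and 2 for 122 genes (37.3%), and over the 489 called falls for 202 (41.3%), a split chosen after the values were seen. Other leading rises were YPEL2 (2.46), the complement factor CFB (2.33), the interferon-inducible GTPase GBP2 (2.31) and the survival kinase PIM1 (2.30).

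The largest falls showed the same pair of patterns. OLR1, a scavenger receptor for oxidized lipoprotein, read 11.40 and 11.49 in SCR 1 and SCR 2 and 6.14 and 6.29 in SID 1 and SID 2, with 12.64 in SCR 3, 12.47 in SID 3 and 12.47 to 12.76 in UT. Its fall was -5.23 (standard error 0.10, limma adjusted p = 0.00209). NETO2, a subunit that accompanies kainate receptors, fell by 4.82, and CD109, a surface protein that restrains TGF-β signaling (-3.40), and MAL2, a transport protein of polarized cells (-3.37), fell too. All of these were high on every array but SID 1 and SID 2. UPK1B, a uroplakin, read 10.90 and 11.43 in SCR 1 and SCR 2 and 6.17 and 6.15 in SID 1 and SID 2, but also 6.33 in SCR 3, 6.20 in SID 3 and 6.12 to 6.29 in UT. It was high in SCR 1 and SCR 2 alone. SPARC, a matricellular glycoprotein (-3.69), MPZL2, an epithelial adhesion protein (-3.54), and SYT14, a synaptotagmin (-3.49), fell again from levels seen in no other array. The difference from replicate 3 passed limma's test for each of these 8 genes, from an adjusted p of 7.64e-05 for NETO2 to 0.0188 for MAL2. The genes were chosen for the falls that enter this test, so the choice favoured that result. Its spread came largely from the UT arrays.

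**Figure D2:**
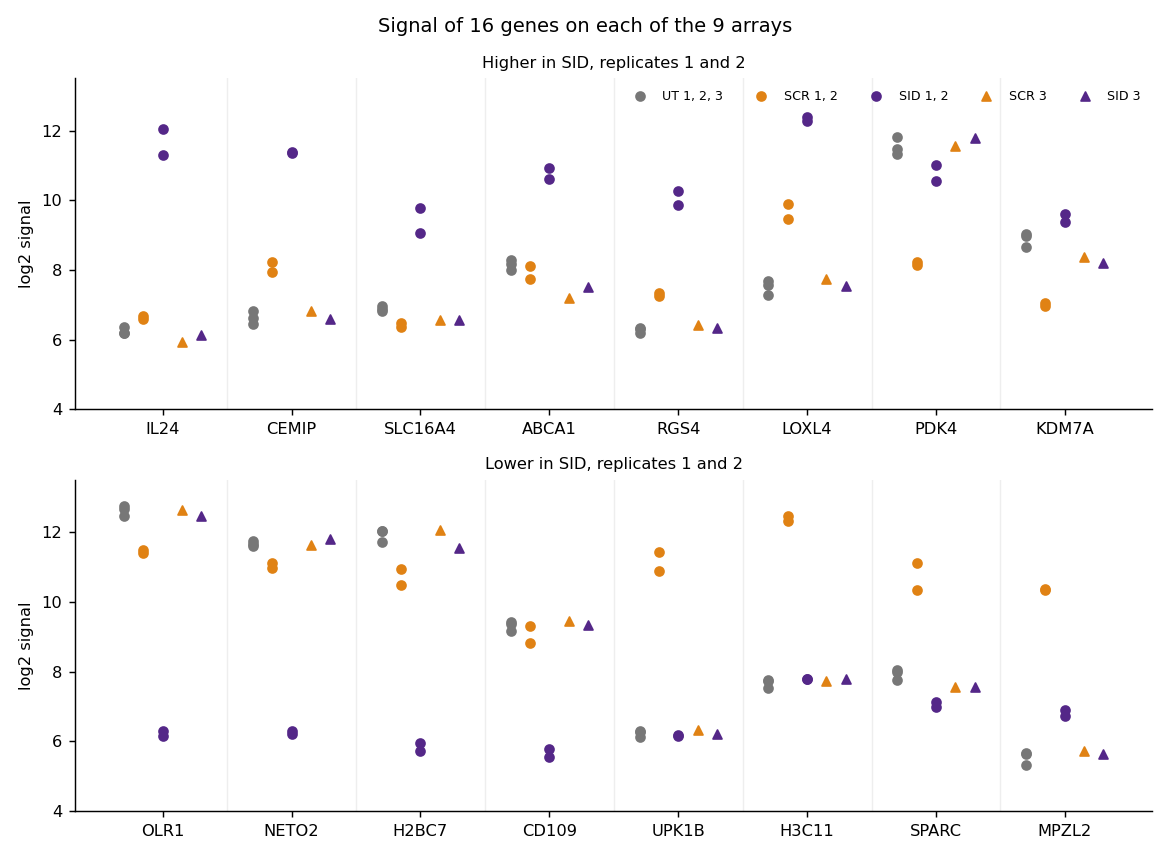
Log2 signal of 8 genes that rose (top) and 8 that fell (bottom) with SID in replicates 1 and 2, 1 point per array: UT (grey), SCR (orange) and SID (purple), replicate 3 as triangles. OLR1 sits near 6 in SID 1 and SID 2 alone, UPK1B above 10 in SCR 1 and SCR 2 alone, and the triangles of each gene lie together.

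Genes that start and carry out DNA replication fell as a group in replicates 1 and 2. All 32 measured genes of this list were lower in SID, 16 of them called, with a median of -1.12 (-0.87 in replicate 1 and -1.25 in replicate 2), against a median of 0.04 over all tested genes, of which 7714 of 18417 were lower and 2.66% called lower. In replicate 3, 29 of the 32 were above 0, with a median of 0.16. CCNE2, a cyclin that drives entry into S phase, read 11.77 and 11.35 in SCR and 9.45 and 8.26 in SID of replicates 1 and 2, and 10.05 and 10.34 in replicate 3. CDC6, which loads the MCM helicase, read 12.04 and 12.18 against 10.56 and 10.07, and 11.48 and 11.86 in replicate 3. For both genes the UT arrays lay between SCR and SID of replicates 1 and 2. MCM10, a replication initiation factor, fell by 1.87, and the helicase subunits MCM4, MCM3 and MCM5 by 1.57, 1.28 and 1.14. The origin recognition subunit ORC1 fell by 1.57, the GINS subunits GINS4, GINS3 and GINS2 by 1.59, 1.17 and 1.10, and RRM2, the ribonucleotide reductase subunit that supplies deoxynucleotides, by 1.15. The activators E2F1 and E2F2 were lower by less (-0.50 and -0.53) and were not called.

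**Figure D3:**
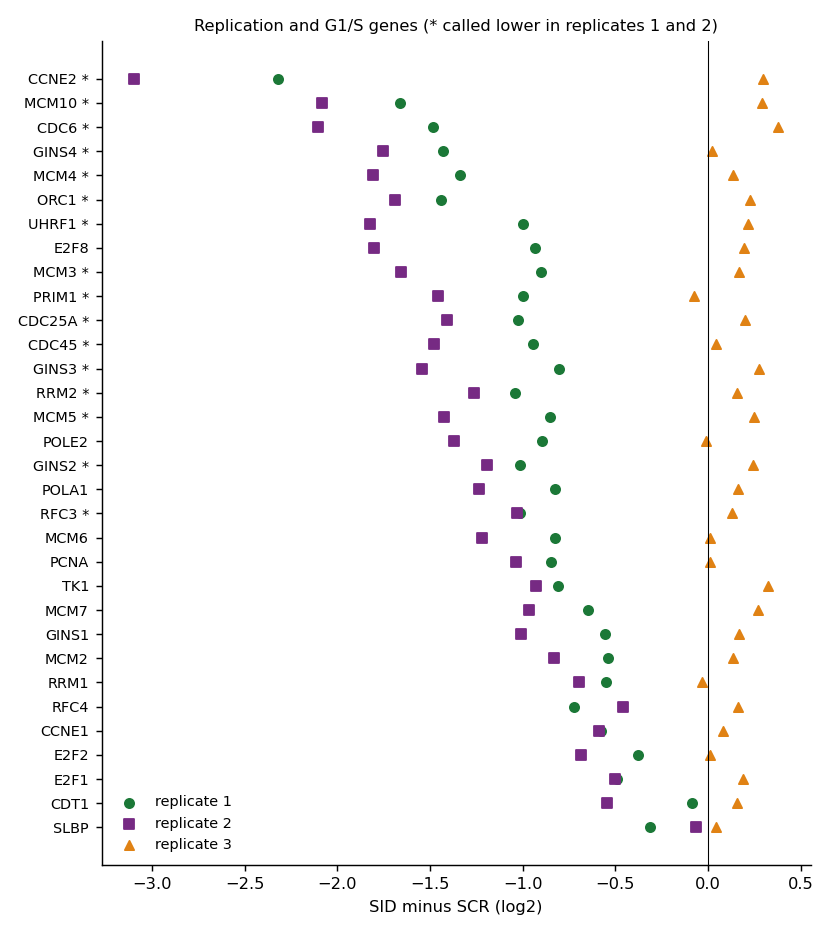
Difference between SID and SCR (log2) for 32 genes of replication and the G1/S transition, ordered by the mean of replicates 1 and 2, with replicates 1 (circles), 2 (squares) and 3 (triangles). In replicates 1 and 2 every gene lies below 0 and 16 were called lower (asterisks), whereas 29 lie above 0 in replicate 3.

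E2F factors are the textbook activators of this gene group, and their motif was looked up in RefSeq promoters (GRCh38.p14, 250 bases before to 50 after the gene start), which matched 14239 tested genes. The letters TTTCCCGC on either strand were found in 18 of the 384 called falls with a promoter (4.7%), in 4 of 265 called rises (1.5%) and in 2.2% of all promoters. A match is a description of the letters and not a binding site. The promoters of 3 called genes with a match follow, shown because their genes fell together, with the motif in capitals on the strand read. GINS2 lies on chr16:85688905-85689204, minus strand, MCM3 on chr6:52284693-52284992, minus strand and UHRF1, which guides maintenance of DNA methylation and fell by 1.41, on chr19:4909251-4909550, plus strand.
GINS2: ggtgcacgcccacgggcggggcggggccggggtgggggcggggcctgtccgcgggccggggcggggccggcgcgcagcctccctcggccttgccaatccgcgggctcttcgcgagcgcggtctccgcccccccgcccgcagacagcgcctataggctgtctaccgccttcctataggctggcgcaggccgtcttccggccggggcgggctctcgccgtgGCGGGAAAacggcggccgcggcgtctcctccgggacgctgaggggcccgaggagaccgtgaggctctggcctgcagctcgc
MCM3: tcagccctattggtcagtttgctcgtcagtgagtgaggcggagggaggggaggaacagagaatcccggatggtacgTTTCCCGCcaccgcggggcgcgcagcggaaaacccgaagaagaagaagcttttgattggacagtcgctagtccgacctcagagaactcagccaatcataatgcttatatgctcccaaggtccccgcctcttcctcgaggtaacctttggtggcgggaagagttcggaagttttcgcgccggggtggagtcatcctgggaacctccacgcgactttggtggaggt
UHRF1: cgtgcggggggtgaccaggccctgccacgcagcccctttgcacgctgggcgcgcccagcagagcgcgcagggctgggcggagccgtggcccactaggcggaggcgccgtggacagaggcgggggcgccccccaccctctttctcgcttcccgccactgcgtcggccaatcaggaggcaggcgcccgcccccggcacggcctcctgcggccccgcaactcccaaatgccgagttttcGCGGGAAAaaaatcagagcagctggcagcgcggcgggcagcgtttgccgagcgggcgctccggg

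Homologous recombination and Fanconi anemia genes, which repair breaks and crosslinks, fell beside the replication genes. All 21 measured members were lower in replicates 1 and 2 (median -0.81) and 6 were called lower, against 7714 of 18417 lower and 2.66% called lower over all tested genes, while 19 were above 0 in replicate 3 (median 0.14). Among those called, XRCC2, a recombination protein, fell by 2.04, the nuclease EXO1 by 1.55, FANCI, which is ubiquitinated at crosslinks, by 1.46 and the helicase BLM by 1.19. Of 28 genes of G2 and mitosis, 22 were lower, with a median of -0.40, and only HMMR, a spindle protein (-2.31), and FOXM1, the mitotic transcription factor (-1.37), were called. The proliferation marker MKI67 differed by -0.58 and -1.57 in replicates 1 and 2 and by 0.20 in replicate 3, and did not pass the test.

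Histone genes of the chromosome 6 clusters, which are transcribed in S phase, included some of the deepest falls. Of 49 measured, 15 were called lower and none higher, against 2.66% and 1.78% of all tested genes, and they had medians of -0.51, -0.89 and -0.06 in replicates 1 to 3. H2BC7 read 10.50 and 10.94 in SCR and 5.71 and 5.96 in SID of replicates 1 and 2, against 12.06 and 11.55 in replicate 3. H4C5 read 9.98 and 10.15 against 6.51 and 6.67, and 11.79 and 11.77 in replicate 3. H3C11 went the other way round between the sets, at 12.47 and 12.33 in SCR 1 and SCR 2 and 7.72 to 7.79 in both SID arrays and both arrays of replicate 3. Histone genes of a cluster are near copies of each other, so that the share of each in its signal is uncertain.

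Serine synthesis fell at its first steps. PHGDH, which opens the pathway from glycolysis, read 10.07 and 10.37 in SCR and 7.97 and 7.93 in SID of replicates 1 and 2 (-2.27, standard error 0.13, limma adjusted p = 0.016), and 12.55 and 12.89 in replicate 3. PSAT1, the next enzyme, fell by 1.62 (0.16 in replicate 3). Among all 18417 tested genes 7714 were lower and 10684 higher, with 2.66% called lower and 1.78% called higher. Of 12 measured serine and one-carbon genes 10 were lower, PHGDH and PSAT1 called, with a median of -0.57. Ribosome biogenesis genes followed the same direction in 17 of 19 (median -0.41, and 0.15 in replicate 3), with the ribosome assembly factors UTP20 and RRS1 called lower (-1.61 and -1.52). Genes of the stress factor ATF4, a known activator of the serine enzymes, were split: 16 of 24 were higher, with the stress regulators NUPR1 (1.29) and ATF3 (1.08) and the lipoprotein receptor VLDLR (1.12) called higher, and the hormone STC2 (-1.51) and the cystine carrier SLC7A11 (-1.05) called lower. GDF15, the largest of the list at 1.61 and 2.49 in replicates 1 and 2, had an adjusted p of 0.069 and was not called.

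Genes of quiescence and of FOXO factors, which are active when growth signals are low, were higher for 20 of 21 measured, with 5 called and a median of 0.42 (0.01 in replicate 3). Over all tested genes 10684 of 18417 were higher and 1.78% were called higher. TXNIP, which lowers glucose uptake, read 12.60 and 12.07 in SCR and 14.18 and 14.26 in SID of replicates 1 and 2, and 12.52 and 12.25 in replicate 3. The repressor BCL6 rose by 1.52, the insulin receptor INSR by 1.26 and the unconventional cyclin CCNG2 by 1.02. Hypoxia and glycolysis genes were higher for 25 of 30 (median 0.39), with 6 called, among them the stress gene NDRG1 (1.73), the glucose transporter SLC2A3 (1.70), the carbonic anhydrase CA12 (1.30) and the angiogenic factor VEGFA (1.23). Of 22 lysosome and autophagy genes 15 were higher and 7 lower (median 0.37), but only the cathepsin CTSF was called (1.76). The others named by size were under 2-fold. NPC1 (0.88) and WIPI1 (0.80) were higher, whereas ATP6V0D1 was lower (-0.97).

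The forkhead letters GTAAACA, on either strand, were in 13 of the 265 called rises with a promoter (4.9%), in 9 of 384 called falls (2.3%) and in 2.5% of all promoters. TGACGTCA, the cyclic AMP response element, was in 4.9%, 3.6% and 2.6% in the same order, and CACGTG, the E-box bound by MYC and MAD1 with their partner MAX, in 10.2%, 9.4% and 8.9%. TGATGNAA, the ATF4 letters, were in 2.3% of rises, 2.3% of falls and 2.5% of all. The promoters of TXNIP (chr1:145996530-145996829, minus strand) and CTSF (chr11:66568557-66568856, minus strand) follow as called rises that hold the forkhead letters, in capitals.
TXNIP: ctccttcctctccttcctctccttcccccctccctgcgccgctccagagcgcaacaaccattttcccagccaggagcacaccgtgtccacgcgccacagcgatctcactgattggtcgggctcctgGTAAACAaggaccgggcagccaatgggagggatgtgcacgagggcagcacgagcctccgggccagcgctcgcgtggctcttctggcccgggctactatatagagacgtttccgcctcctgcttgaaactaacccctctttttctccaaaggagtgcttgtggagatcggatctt
CTSF: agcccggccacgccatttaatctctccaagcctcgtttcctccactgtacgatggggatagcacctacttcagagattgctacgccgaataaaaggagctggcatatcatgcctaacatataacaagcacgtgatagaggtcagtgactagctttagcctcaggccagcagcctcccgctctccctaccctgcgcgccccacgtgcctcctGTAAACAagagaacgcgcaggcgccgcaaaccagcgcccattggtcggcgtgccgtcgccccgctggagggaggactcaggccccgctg

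Immune genes moved in both directions. Over all tested genes 10684 of 18417 were higher, 1.78% were called higher and 2.66% called lower. Complement genes were higher for 15 of 17 (median 0.38), with CFB, C2 and C1R called. C2, the protease of the classical pathway, read 7.13 and 7.54 in SCR and 9.23 and 9.65 in SID of replicates 1 and 2, and 6.62 and 6.86 in replicate 3. Cytokines were split, 13 of 24 higher, with IL24, IL32 (1.76), IL6 (1.33) and the interleukin 1 antagonist IL1RN (1.14) called higher and the neutrophil attractant CXCL1 (-1.48) called lower. IL6 was higher in replicate 3 too (9.17 in SCR and 9.85 in SID). Of 25 receptor and Toll-like receptor genes 6 were called lower and 1, the interleukin 1 receptor accessory chain IL1RAP (1.19), higher. TLR4, the endotoxin receptor, read 10.19 and 10.36 in SCR and 7.86 and 6.44 in SID, against 7.27 and 7.36 in replicate 3. TLR3, the double-stranded RNA receptor, fell by 1.98 and the pathway inhibitor IRAK3 by 2.45.

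Interferon-stimulated genes were lower for 23 of 30, with a median of -0.47 and 8 called lower. Among all 18417 tested genes 7714 were lower and 10684 higher, with 2.66% called lower and 1.78% called higher. HERC6, a ubiquitin ligase, fell by 2.45, IFI44 by 2.1, the RNA-binding IFIT2 by 1.74 and OAS2, an antiviral enzyme, by 1.52. All 4 were high in SCR 1 and SCR 2 and low in UT and replicate 3. HERC6 read 9.92 and 9.57 in SCR, 7.50 and 7.10 in SID and 7.46 to 7.96 in UT. IFI44 and IFIT2 stayed above UT in SID 1 and SID 2. IFI44 read 7.90 and 7.03 there against 5.95 to 6.47 in UT, and IFIT2 8.66 and 7.75 against 6.07 to 6.49. The membrane protein IFITM1 (1.71) and IFI27 (1.57) were called higher. Antigen presentation genes were higher for 9 of 11 with a median of 0.46, but none was past 2-fold, the peptide transporter TAP1 being highest at 0.81.

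**Figure D4:**
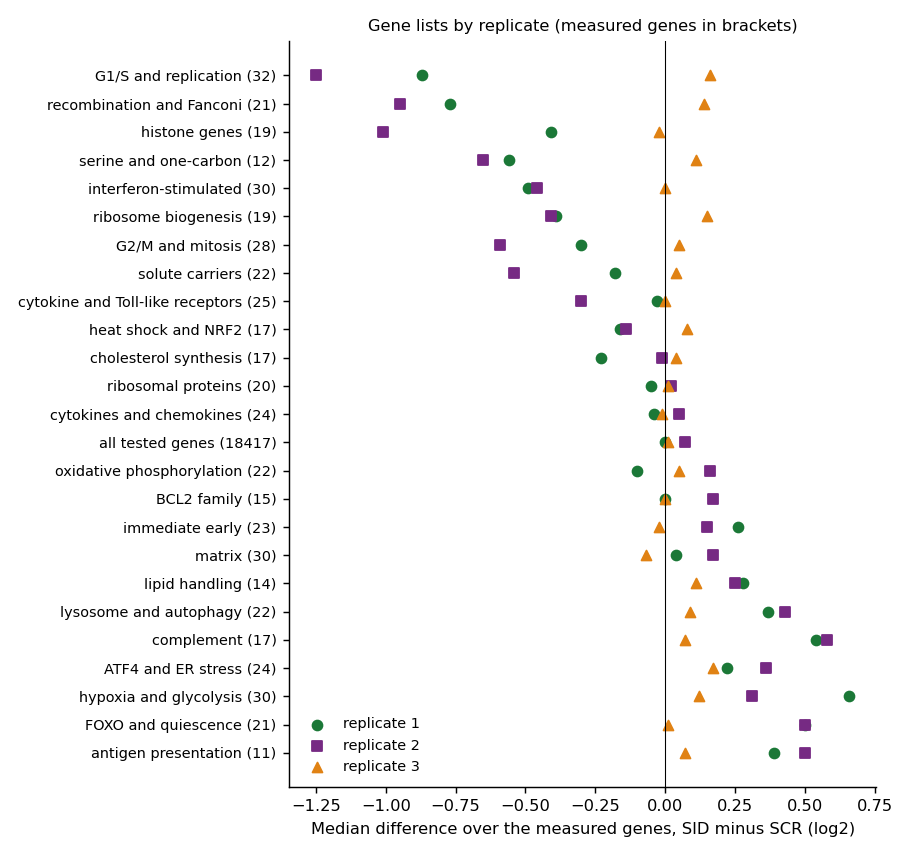
Median difference between SID and SCR (log2) over the measured genes of 24 gene lists and over all tested genes, for replicates 1 (circles), 2 (squares) and 3 (triangles), ordered by the median of replicates 1 and 2. Replication genes lie at the low end (-0.87 and -1.25) and the triangles lie between -0.07 and 0.17.

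Of all tested genes 4.43% were called in either direction, against 6.7% of the matrix list, 19.0% of the protease list, 14.3% of the contractile list and 27.3% of the solute carrier list. Of 30 matrix genes only SPARC was called lower and EDIL3, an integrin ligand, higher (1.62). Among 21 proteases and inhibitors, the serpins SERPINB5 and SERPINE2 fell by 3.02 and 1.58, the membrane protease MMP16 fell by 1.73 and ADAMTS6 rose by 1.04. Contractile genes were mixed, with smooth muscle actin ACTA2 (1.51) and the myosin kinase MYLK (1.31) called higher and the tropomyosin TPM2 lower (-1.12). Solute carriers had 5 called falls and 1 called rise in 22 (median -0.31), the falls including the organic anion carrier SLCO1B3 (-2.97), the fatty acid transporter SLC27A2 (-2.56) and the monocarboxylate carrier SLC16A7 (-2.02). No member was called among 20 ribosomal protein genes (median -0.04), 22 genes of oxidative phosphorylation (0.06), 17 heat shock and NRF2 genes (-0.16), 7 metallothioneins (0.10), 15 BCL2 family genes (0.08) and 13 housekeeping genes (0.02). The 17 cholesterol synthesis genes had 1, ACAT2 (-1.96), and the 14 lipid handling genes had ABCA1 and the receptor-degrading ligase MYLIP (1.29), both higher.

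MXI1, a MAD family repressor with a SID of its own, was the only 1 of 10 measured MAD, MYC and SIN3 genes to be called. It read 8.0 and 7.97 in SCR and 9.31 and 9.47 in SID of replicates 1 and 2 (1.41, standard error 0.09, limma adjusted p = 0.016), and 9.04 and 9.12 in replicate 3. MXD1 differed by 0.30 and 1.20 in replicates 1 and 2 and did not pass the test (adjusted p = 0.131). SIN3A differed by -0.06 and -0.42 and SIN3B by 0.11 and 0.03, neither past the test, and MYC by 0.83 and 0.68, under the fold limit.

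Genes of the short arm of chromosome 9 around MTAP were among the falls. This segment is reported as deleted in MDA-MB-231, yet MTAP and KLHL9 gave clear signal in UT and replicate 3. Copy number was not tested. MTAP, an enzyme of methionine salvage, read 8.19 and 8.35 in SCR 1 and SCR 2, 6.43 and 6.36 in SID 1 and SID 2, 9.37 in SCR 3, 9.52 in SID 3 and 9.31 to 9.51 in UT. The neighbours KLHL9, a ubiquitin ligase adaptor, and MIR31HG, a long noncoding RNA, fell by 1.92 and 3.13. KLHL9 read 7.98 and 8.37 in SCR, 6.20 and 6.32 in SID, and 10.53 to 10.78 in all other arrays. In all, 5 of 10 measured genes of the segment were called lower and none higher, 4.43% of tested genes being called either way, and the interferon gene IFNB1 there stayed within 4.81 and 5.23 in the 6 arrays. Of 18 genes usually low or absent in MDA-MB-231, 5 were called lower, against 2.66% of all tested genes, and they differed in pattern. CDH1, the epithelial cadherin (-3.45), and the epithelial genes GRHL2 (-2.59) and RAB25 (-1.86) were well above UT in SCR 1 and SCR 2 and near UT in SID 1 and SID 2. GATA3, a luminal factor, read 9.54 and 10.05 in SCR 1 and SCR 2 and 8.74 and 8.80 in SID 1 and SID 2, all above UT (7.12 to 7.54). FOXA1, another luminal factor, read 9.14 and 9.64 in SCR 1 and SCR 2 and 8.25 and 8.42 in SID 1 and SID 2, all below UT (9.89 to 10.03). Of 13 basal cell genes 8 were higher in SID and 5 lower (median difference 0.11), with KRT5 (-2.59) and MPZL2 (-3.54) called lower and none higher, the integrin chain ITGB4 being highest at 0.69. No gene of the 10 fibroblast or 10 leukocyte markers was called. The pan-leukocyte marker PTPRC read 4.84 to 5.07 on the 9 arrays, but the actin bundling protein LCP1 read 10.93 and 11.02 in SCR 1 and SCR 2, 9.75 and 7.87 in SID 1 and SID 2 and 6.04 to 6.27 on the other 5 (adjusted p = 0.102). The median level of the leukocyte list was 7.15 to 7.38 in the 4 arrays of replicates 1 and 2 and 6.41 to 6.55 in the others, and 1 of 11 endothelial markers was called lower. These marker levels moved with the comparison, and their part in it was not tested.

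Small noncoding RNAs were where replicate 3 differed most between SID and SCR. Of its 45 genes past 2-fold lower, 25 were small nucleolar RNAs outside the SNORD116 family, 9 were SNORD116 copies and 8 were spliceosomal or related small nuclear RNAs. The 152 small nucleolar RNAs had medians of 0.33, 0.07 and -0.40 in replicates 1, 2 and 3, and 130 lay below 0 in replicate 3. All 23 small nuclear RNAs were below 0 there, with a median of -0.80. Their median level was 8.77 in SCR 3 and 7.88 in SID 3, but also 8.78, 8.66 and 7.92 in the UT arrays, a spread as wide as that difference. SNORA22, a guide of pseudouridylation, had the largest difference in replicate 3, with 12.45 in SCR and 9.46 in SID, but it also ranged from 10.12 to 13.15 among the 3 UT arrays. SCARNA4, a Cajal body RNA, differed by -2.21 in replicate 3, and its UT range was narrower (8.32 to 8.78). In replicates 1 and 2 it was higher by 0.97 and 0.80, and the difference between the sets passed limma's test (-3.09, adjusted p = 0.00333). SCARNA4 was named for its size in replicate 3, which enters that test. SCARNA22 and SCARNA23, picked after their values were seen, were called higher in replicates 1 and 2 (1.25 and 1.49) and were past 2-fold lower in replicate 3 (-1.16 and -1.09). With all 9 arrays in the fit limma called no gene in replicate 3 (lowest adjusted p = 0.179, 474 genes with an unadjusted p under 0.05).

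SNORD116, a cluster of imprinted small nucleolar RNAs on chromosome 15, held the only 4 genes past 2-fold in the same direction in all replicates, although the median of its 20 copies was past 2-fold in none. The 4 genes were SNORD116-1, SNORD116-6, SNORD116-20 and SNORD116-24. SNORD116-24 read 7.99 and 9.33 in SCR 1 and SCR 2 and 5.18 and 5.22 in SID 1 and SID 2, against 12.75 in SCR 3, 10.71 in SID 3 and 11.55 to 13.17 in UT. SNORD116-20 read 8.37 and 9.68 against 4.83 and 5.58, with 12.77 in SCR 3, 11.67 in SID 3 and 12.17 to 13.19 in UT. The order was SID below SCR in each set, with the whole of replicates 1 and 2 far below UT. Over 20 copies the median was -0.22, -0.55 and -0.92 in replicates 1, 2 and 3, and 5 were called lower in replicates 1 and 2, SNORD116-14 most (-4.63). The median level was only 5.27 and 5.52 in SCR 1 and SCR 2 and 4.98 and 5.04 in SID 1 and SID 2. It was 9.71 in SCR 3 and 8.42 in SID 3. Such low levels left many copies little room to fall in replicates 1 and 2, so the sizes of these medians cannot be compared between the sets. The copies resemble each other closely and may share signal, so they do not count as separate events, and their median level already varied from 8.87 to 10.15 among the UT arrays. The neighbouring SNORD115 copies had median levels of 4.28 to 4.44 on the 9 arrays, with no call.

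**Figure D5:**
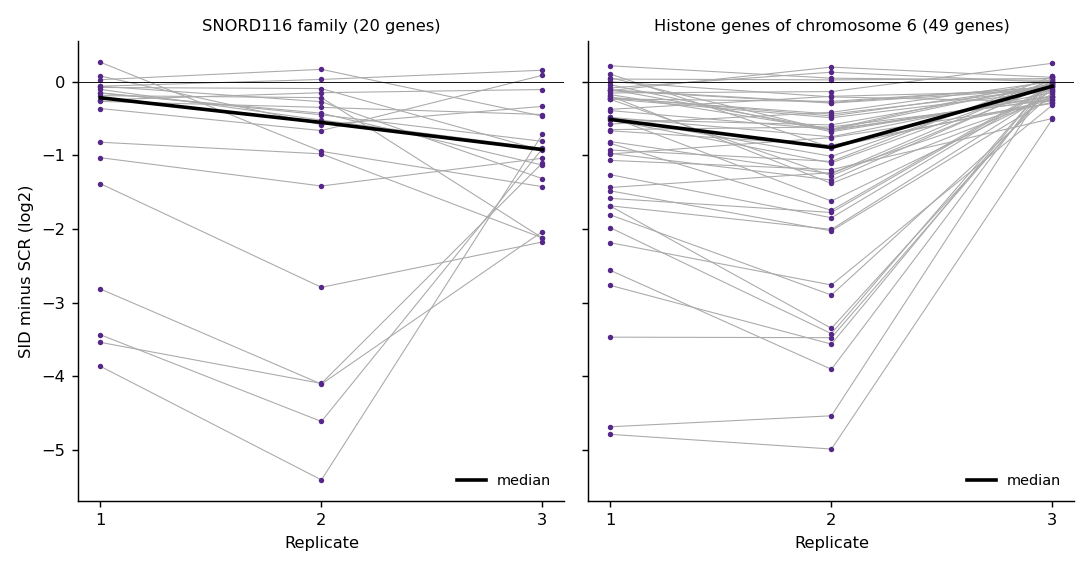
Difference between SID and SCR (log2) for each of 20 SNORD116 genes (left) and 49 histone genes of chromosome 6 (right) in replicates 1, 2 and 3, thin lines joining the values of a gene and the thick line their median. The SNORD116 median lies at -0.92 in replicate 3, where the histone median is -0.06. Median SNORD116 levels were 5.27 and 5.52 in SCR 1 and SCR 2 against 9.71 in SCR 3, which left less room for a fall in replicates 1 and 2.

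Beyond SNORD116, few called genes kept a visible difference in replicate 3. Differences over 0.5 there were rare over all tested genes too, at 234 of 18417. That count takes both directions, whereas the counts that follow take the called direction only. Of the 327 called rises 4 exceeded 0.5 there, namely NR4A2, IL6, ATF3 and MAGED1, and of the 489 called falls 8 were below -0.5. These were 5 copies of SNORD116, the histone genes H2BC7 and H3C8, and CLSPN, an adaptor of the replication checkpoint, which differed by -1.82, -2.71 and -0.62 in replicates 1, 2 and 3. MAGED1, an adaptor of cell death signaling, differed by 2.20, 2.03 and 0.60. NR4A2, a nuclear receptor of the immediate early kind, had the largest of these rises in replicate 3, with 7.27 and 7.21 in SCR, 8.01 and 8.48 in SID, and 9.48 against 10.23 in replicate 3 (0.74, 1.27 and 0.75). The difference between the sets was -0.25 with an adjusted p of 0.656 by limma, which does not show that the sets agree. The unadjusted interval of NR4A2 in replicate 3 ran from 0.21 to 1.30. The gene was picked for its size there, which favours such an interval, and limma called no gene in replicate 3. The other leading positive differences of replicate 3 were ADCK1 (0.78), a mitochondrial kinase-like protein, FABP3 (0.76), a fatty acid carrier, INSL4 (0.74), a relaxin-like hormone, the Notch target HEY2 (0.74) and SPA17 (0.73). Of these FABP3 was also higher in replicates 1 and 2, by 0.42 and 0.80 without passing the test, and the rest were lower there.

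By chromosome, called falls made up 5.73% of measured genes on chromosome 15 (33 of 576), 4.48% on chromosome 12 (44 of 982) and 4.09% on chromosomes 5 and 6, the latter with the histone clusters, against 0.92% on chromosome 19. Called rises were most frequent on chromosome 6 (3.38%). Of all tested genes 2.66% were called lower and 1.78% called higher. The falls of chromosome 15 include 5 copies of SNORD116, which do not count as separate events. The Wnt and EMT genes of the study, chosen on these arrays, were called lower for 7 of 13 and 7 of 10 measured, with a median of -1.64 and -1.40 in replicates 1 and 2 and of 0.04 and 0.10 in replicate 3.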

How the data were processed

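RNA of UT, SCR and SID treated MDA-MB-231 cells was hybridised to whole-transcript human gene arrays, 3 arrays per group. The authors made the values with Affymetrix Expression Console by RMA and compared groups in the Transcriptome Analysis Console, per the submitters' processing notes, which give no versions. The deposited values are on a log2 scale, as read from their range. Detection calls and counts per probe are not given in the sources used here, so the number of arrays limits the precision.

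Probes with 1 gene symbol (19460 of 33297) were tested, 1754 with several symbols and 12083 with none being left out, and 19429 matched RefSeq by gene ID. Each gene was represented by its probe with the highest mean, 769 genes having several probes. Differences were SID minus SCR of the same replicate number. Tests were run in R 4.3.3 with limma 3.58.1 (Benjamini-Hochberg adjusted p under 0.05 and a difference past 2-fold) on replicates 1 and 2, on all replicates, and on the difference between the sets with all 9 arrays. The code was tested on simulated data. The p-values measure only the spread between these arrays, which may be technical. The methods speak of independent biological replicates, but of fewer than the arrays per group. Which arrays were separate cultures is not stated. The numbers of the labels were taken as pairs. Deviations of same-numbered arrays from their group means correlated at 0.774, 0.575 and 0.791. However, SCR 2 correlated more with SID 1 (0.748), and SCR 1 correlated with SID 2 at 0.604. These deviations also carry the gap between the sets, so they do not show that replicates 1 and 2 are paired by number.

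The named genes were the 15 largest called rises and falls, the 6 largest differences of replicate 3 in each direction, the 5 called genes with the largest difference shared by replicate 3, up to 4 members per list, and all genes of the chromosome 9 segment and the SIN3 and MAD family; others named in the text were chosen after their values were seen. The members and lists were chosen with earlier results of these data known. Alternatives were other scalings, filters, fold limits, the replicate block, array weights and leaving out arrays. Figures were drawn with matplotlib 3.10.9.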

Additional observations from a re-analysis of the deposited data

Results flagged for a closer look

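The difference between SID and SCR in replicate 3 departed from that in replicates 1 and 2, by a limma test of the difference itself with all 9 arrays, for 613 probes in the higher and 335 in the lower direction. The 6 genes below were flagged by that same test. Replicate 3 minus the mean of replicates 1 and 2 was 5.06 for OLR1 (adjusted p = 8.64e-05), 5.0 for NETO2 (7.64e-05) and 4.87 for UPK1B (0.000915), all of which fell in replicates 1 and 2. It was -4.83 for IL24 (0.00326) and -3.52 for CEMIP (0.00207), which rose there. For SCARNA4 it was -3.09 (0.00333), with opposite signs in the sets.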

How the results depend on the processing

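Counts here are of probes. In replicates 1 and 2 the 345 higher and 514 lower calls became 1207 and 1437 with no fold limit. Leaving out 1 of the 4 arrays gave 0 to 0 in both directions, which leaves 1 residual degree of freedom, so these p-values say nothing of stability. With all 9 arrays in 5 cells (added after seeing the data), 930 were lower without SID replicate 1. The replicate block gave 379 higher and 632 lower, with all 859 calls kept, and 0 in either direction over all replicates. Over all replicates, leaving out an array gave 0 to 279 higher and 0 to 369 lower (63 and 160 without SCR replicate 3, the upper values without SID replicate 3), and array weights 324 and 437.

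In replicate 3, 0 higher and 57 lower probes became 22 and 165 with all probes of the table and 48 and 110 past 1.5-fold, and the test with all 9 arrays called 0 lower (520 unadjusted). For the difference between the sets, 613 and 335 became 397 higher with all probes, 3 and 0 without UT, and 351 to 1070 and 220 to 475 with an array left out (lowest without SCR replicate 2 and SCR replicate 1, highest higher count without SID replicate 1). Probes past the limit in both of replicates 1 and 2, 261 and 413, became 930 and 1175 past 1.5-fold, and 627 lower with all probes. SIN3B ran from -0.018 to 0.161 with an array left out, negative without SCR replicate 1 in both fits. Of 101 named genes called, 76 were called with all probes and 95 to 100 under the other scalings and 5-cell fits. The cause of these changes was not tested.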
